A study of Homo sapiens with 6 samples.

Results

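The Hippo-YAP pathway was followed through 10 genes in A549, an epithelial line from a human lung carcinoma, after depletion of BCLAF1, which acts in transcription and splicing in the nucleus. The genes were the coactivators YAP1 and WWTR1, the DNA-binding partners TEAD1 and TEAD4, the kinase gene LATS2, the angiomotin-like genes AMOTL1 and AMOTL2, and the target genes CTGF, CYR61 and ANKRD1. They were taken by symbol from the deposited table of read counts, which lists 29122 genes, and all 10 were found and passed the low-count filter. The control group was 3 libraries of A549 cells stably transduced with lentivirus whose hairpin targets firefly luciferase, which is absent from human cells. The BCLAF1-depleted group was 3 libraries of A549 cells stably transduced with a lentiviral hairpin against BCLAF1. All cells therefore carried a lentiviral hairpin, and the sources used here give no number of hairpins or cell clones.

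In the Hippo pathway, the MST kinases phosphorylate the LATS kinases. LATS kinases then phosphorylate the coactivators YAP1 and TAZ (the product of WWTR1), which keeps these coactivators out of the nucleus. Unphosphorylated YAP1 and TAZ enter the nucleus and bind TEAD factors on DNA, where they drive genes such as CTGF, CYR61 and ANKRD1. LATS2 and AMOTL2 are restrainers of YAP1 and are also among its targets, so the pathway holds its own negative feedback. In epithelial cells it responds to cell density, adhesion and actin tension. RNA levels do not show phosphorylation or location of the proteins.

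Library totals ran from 33409158 to 43928927 counts, so 3 counts, a floor that covers counting error alone, came to 0.0683 to 0.0898 CPM (read counts scaled to library size). The reads carry no molecular identifiers. BCLAF1 itself had 211.1, 199.0 and 203.2 CPM in the controls and 39.0, 35.7 and 53.1 CPM after depletion, a log2 fold change of -2.26 ± 0.16 (adjusted p = 2.31e-05 by edgeR's quasi-likelihood test). On the first principal component, which held 68.3% of the variance, the controls lay at -43.6 to -40.9, BCLAF1-depleted replicates 2 and 3 at 54.2 and 53.4, and replicate 1 between them at 19.4. Mitochondrial transcripts took 19.3% of counts in BCLAF1-depleted replicate 3 and 10.5 to 11.4% in the other 5 libraries. Of 6 epithelial markers, 5 were above 1 CPM in every library, while KRT19 stayed between 0.208 and 0.832 CPM. Summed fibroblast markers were at 22.8 to 25.5 CPM in controls and 14.8 to 16.95 CPM after depletion. COL1A1 alone lay at 17.02 to 18.2 CPM in controls and at 8.87 to 10.6 CPM after depletion, and 4 of the 7 fibroblast markers stayed under 1 CPM. Summed endothelial markers were at 1.78 to 2.38 and 2.23 to 2.85 CPM, and immune markers at 0.654 to 1.93 and 1.17 to 2.31 CPM. The endothelial sum held opposite moves. PECAM1 was at 0.879 to 1.31 CPM in controls and 0.513 to 0.675 CPM after depletion, and CDH5 at 0.645 to 0.815 and 1.38 to 2.11 CPM. The part of these marker differences in the results was not tested, and fewer cells expressing a gene and less RNA per cell cannot be told apart in bulk RNA. The labels do not state whether replicates are separate cultures. The p-values therefore measure only how far these libraries spread, which may be technical.

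TEAD factors bind the letters GGAATG, and stretches near the starts of ANKRD1, CTGF, AMOTL2 and LATS2 are shown because these genes share the letters and differ in how their RNA behaved. RefSeq promoter windows (GRCh38.p14, 250 bases before to 50 after the start) were at hand for YAP1, WWTR1, LATS2, AMOTL1, AMOTL2, CTGF and ANKRD1. Searched on both strands, GGAATG was present in the windows of 5 of these 7 genes (YAP1, LATS2, AMOTL2, CTGF and ANKRD1), or in 5 of their 9 windows, against 14.0% of all 35116 windows. Several members are known as TEAD targets, so their count is a description. Each sequence runs 5′ to 3′ along the gene's strand, with GGAATG or its reverse complement in capitals. For ANKRD1 and CTGF the bases before the annotated gene are given, and other matches with their flanks.
ANKRD1 (chr10:90921277-90921337, minus strand): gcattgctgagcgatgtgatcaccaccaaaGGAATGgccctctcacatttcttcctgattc
ANKRD1 (chr10:90921198-90921227, minus strand): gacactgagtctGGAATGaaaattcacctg
CTGF (chr6:131951374-131951622, minus strand): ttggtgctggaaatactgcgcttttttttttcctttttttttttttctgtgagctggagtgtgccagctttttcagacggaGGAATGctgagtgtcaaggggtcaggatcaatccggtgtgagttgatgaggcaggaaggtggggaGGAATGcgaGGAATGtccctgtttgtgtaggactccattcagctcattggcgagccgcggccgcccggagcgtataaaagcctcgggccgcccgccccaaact
AMOTL2 (chr3:134374499-134374528, minus strand): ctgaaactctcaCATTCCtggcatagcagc
LATS2 (chr13:21061560-21061589, minus strand): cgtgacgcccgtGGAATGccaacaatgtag

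Distances here are from the RefSeq start of each window, which can differ from the start of the GENCODE 29 gene printed with the values. The RefSeq start lay 189 bases inside the GENCODE gene for ANKRD1, 1032 bases inside it for the AMOTL2 window with a match, 39 bases before it for LATS2, 14 bases before it for YAP1 and 1 base inside it for CTGF. For the genes without a match it lay far inside, by 33441 and 78689 bases for WWTR1 and 61925 bases for AMOTL1. The stretch around the GENCODE start of WWTR1 and AMOTL1 was therefore not searched. CTGF held 3 matches, which began 169, 104 and 95 bases before the start, and ANKRD1 held 2, at 220 and 128 bases before its RefSeq start, the second of them inside the GENCODE gene. The match in YAP1 began 162 bases before the start, that in AMOTL2, in 1 of its windows, 69 bases before it and that in LATS2 9 bases after it. AP-1, the FOS and JUN dimer, often acts beside TEAD, and its letters TGANTCA occurred only in the ANKRD1 window, 195 bases before the start, where 7.71% of all windows hold them. The CArG box bound by SRF was in none of the 9 windows of these 7 genes and in 1.29% of all windows. A match to letters is a description and not a bound site.

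Depletion of BCLAF1 went with unequal changes along the pathway. ANKRD1 and TEAD4 rose, LATS2, AMOTL2 and WWTR1 fell, and YAP1, TEAD1, AMOTL1, CTGF and CYR61 did not pass the test. Thus 5 of 10 members were past an adjusted p of 0.05, where 35.8% of all 15907 tested genes were (2827 higher and 2870 lower). With library totals as the only scaling, all genes split into 1283 higher and 3662 lower and their median was -0.21 (31.1% past the threshold). The median log2 fold change of the 10 members was -0.18 with TMM scaling, against 0.02 over all tested genes. By direction, 2 members were higher (17.8% of tested genes were) and 3 lower (18.0%). No overlap between control and depleted values was seen for 6 members (3 higher and 3 lower), where 51.9% of tested genes did not overlap (25.3% higher and 26.6% lower). Tests are by the quasi-likelihood method of edgeR with Benjamini-Hochberg adjustment over all tested genes, and each log2 fold change sets the depleted libraries over the controls, ± SE. Levels in CPM are scaled by the trimmed mean of M-values (TMM), with mean ± SD (n = 3).

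**Figure D1:**
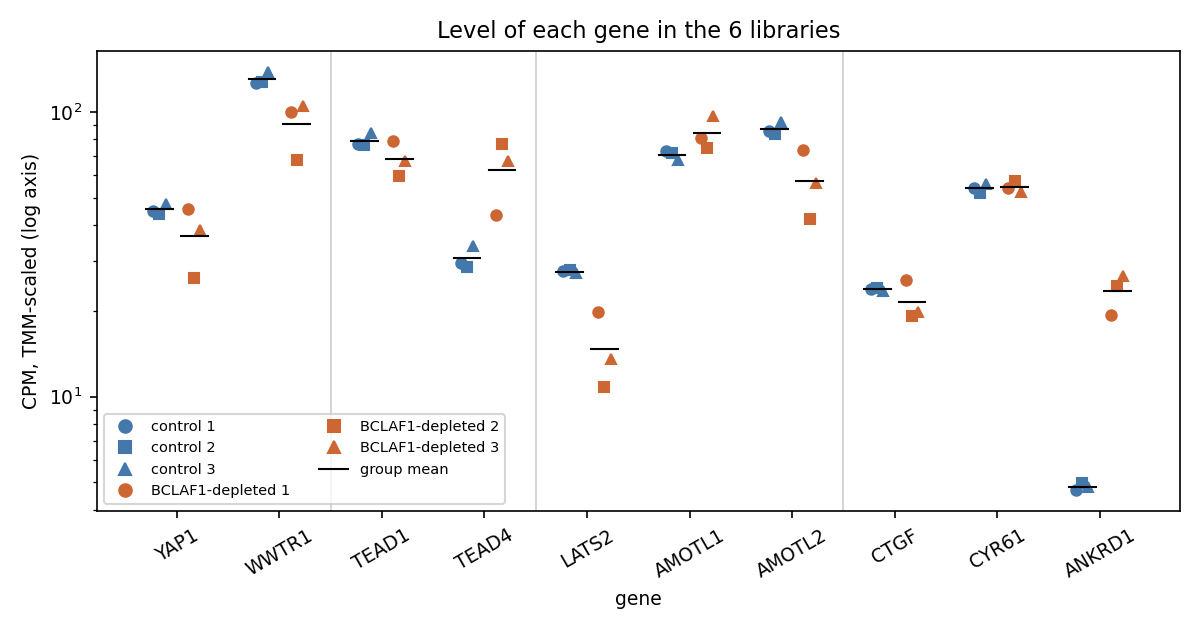
Level in TMM-scaled CPM (log axis) of the 10 genes in each of 3 control and 3 BCLAF1-depleted libraries, with bars at the group means. ANKRD1 lay at 4.68 to 4.96 CPM in controls and at 19.3 to 26.5 CPM after depletion, and LATS2 at 27.1 to 27.8 and 10.8 to 19.8 CPM.

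The coactivators come first. YAP1 (ENSG00000137693.12; GRCh38 chromosome 11, 102110461 to 102233423, plus strand), the coactivator that gives the pathway its name, had 44.9, 43.7 and 47.6 CPM in controls and, in the order of replicates 1 to 3, 45.7, 26.2 and 38.4 CPM after depletion. Depleted replicate 1 lay within the controls and the other replicates below them, so the groups overlapped. The log2 fold change of -0.31 ± 0.18 was not past the threshold (adjusted p = 0.202), with a 95% interval from -0.70 to 0.09. WWTR1 (ENSG00000018408.13; chromosome 3, 149517235 to 149736714, minus strand), which codes for the YAP1 paralogue TAZ, had 125.9, 127.4 and 138.5 CPM in controls and 100.03, 67.8 and 104.9 CPM after depletion. Every depleted library lay below every control, by 1.44-fold in the means (130.6 ± 6.86 and 90.9 ± 20.1 CPM). Its log2 fold change was -0.52 ± 0.17 (adjusted p = 0.0333).

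The call for WWTR1 was not firm. It was lost without control replicate 1 (-0.55, adjusted p = 0.0833), control replicate 2 (-0.55, 0.0879), control replicate 3 (-0.48, 0.115) or BCLAF1-depleted replicate 2 (-0.35, 0.054), and with gene length and GC content corrected for (-0.36, 0.0958). YAP1 passed without BCLAF1-depleted replicate 1 (-0.52, adjusted p = 0.0209). Both genes share exon sequence with antisense genes, 628 bases of YAP1 with AP000942.2 and 795 bases of WWTR1 with WWTR1-AS1, and the strand setting of the counting is unknown.

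Of the TEAD factors, TEAD4 was higher after depletion and TEAD1 did not pass the test. TEAD1 (ENSG00000187079.13; chromosome 11, 12674591 to 12944483, plus strand), a widely expressed TEAD factor, had 76.9, 76.3 and 84.1 CPM in controls and 78.8, 59.5 and 67.2 CPM after depletion. Depleted replicate 1 fell among the controls and the others below them. The log2 fold change was -0.21 ± 0.13 (adjusted p = 0.241; 95% interval -0.50 to 0.09). TEAD4 (ENSG00000197905.7; chromosome 12, 2959330 to 3040673, plus strand), a TEAD factor known from trophectoderm and muscle, had 29.3, 28.6 and 33.9 CPM in controls and 43.6, 77.0 and 67.5 CPM after depletion. All depleted libraries were above all controls, with replicate 1 the nearest to them. TEAD4 rose by 1.03 ± 0.19 on the log2 scale, 2.05-fold in the means (adjusted p = 0.00366). TEAD1 passed without BCLAF1-depleted replicate 1 (-0.34, adjusted p = 0.0236) and changed sign with the length and GC correction (0.06, 0.712). TEAD4 kept its call in all settings run.

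Levels can be compared between genes only per length, for which the authors' deposited FPKM (fragments scaled to gene length and library size) were used. TEAD4 was the most abundant of the 4 TEAD genes in all 6 libraries, with 15.7, 15.2 and 18.3 FPKM in controls and 21.8, 33.3 and 25.8 FPKM after depletion. Its share of the summed TEAD FPKM was 48.7, 48.4 and 50.8% in controls and 59.8, 72.5 and 72.7% after depletion. TEAD1 took 24.6, 24.9 and 24.3% of it in controls and 20.9, 10.8 and 13.9% after depletion. The other 2 family members did not pass the test: TEAD2 had 18.1 ± 1.36 and 17.6 ± 2.73 CPM (-0.04 ± 0.14, adjusted p = 0.85), and TEAD3 6.74 ± 0.801 and 4.86 ± 1.48 CPM (-0.47 ± 0.21, 0.111).

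LATS2 and AMOTL2, which restrain YAP1, were lower. LATS2 (ENSG00000150457.8; chromosome 13, 20973032 to 21061547, minus strand), a kinase that phosphorylates YAP1 and TAZ, had 27.6, 27.8 and 27.1 CPM in controls and 19.8, 10.8 and 13.5 CPM after depletion. The controls lay within 1 CPM of each other and every depleted library was below them, least so replicate 1. LATS2 fell to a 1.87-fold lower mean, with -0.90 ± 0.19 on the log2 scale (adjusted p = 0.0068), and stayed past the threshold in all settings run. AMOTL2 (ENSG00000114019.13; chromosome 3, 134355874 to 134375479, minus strand), an angiomotin-family scaffold that binds YAP1 at cell junctions, had 86.0, 83.4 and 92.5 CPM in controls and 73.5, 42.2 and 56.1 CPM after depletion. Again no depleted library reached the controls, and replicate 1 was the nearest. The log2 fold change was -0.61 ± 0.18 (adjusted p = 0.026). This call was lost without control replicate 1 (-0.62, adjusted p = 0.0699), control replicate 2 (-0.65, 0.063), control replicate 3 (-0.57, 0.0918), BCLAF1-depleted replicate 2 (-0.43, 0.0598) or BCLAF1-depleted replicate 3 (-0.60, 0.0614).

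AMOTL1 (ENSG00000166025.16; chromosome 11, 94706431 to 94876753, plus strand), the paralogue of AMOTL2, had 72.9, 71.8 and 67.6 CPM in controls and 80.7, 74.5 and 97.1 CPM after depletion. The depleted libraries were all higher, though replicate 2 by little. Its log2 fold change of 0.25 ± 0.13 was not past the threshold (adjusted p = 0.155; 95% interval -0.04 to 0.54). With the length and GC correction it was (0.42, adjusted p = 0.0282), and so it was with that correction and BCLAF1-depleted replicate 1 left out (0.47, 0.0109). Leaving out that replicate without the correction gave 0.26 (0.11), not past the threshold, and on the deposited FPKM its sign turned (-0.05, 0.797). AMOTL1 shares 496 exon bases with AP002383.2 on the opposite strand, and AMOTL2 shares 187 bases with the pseudogene RPL39P5 on its own strand.

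Of the 3 target genes, ANKRD1 rose and CTGF and CYR61 did not pass the test. ANKRD1 (ENSG00000148677.6; chromosome 10, 90912096 to 90921276, minus strand), an ankyrin repeat protein of heart muscle and other stressed cells, had 4.68, 4.96 and 4.80 CPM in controls and 19.3, 24.5 and 26.5 CPM after depletion. The lowest depleted library was well above the highest control. ANKRD1 rose by 2.28 ± 0.15 on the log2 scale (adjusted p = 1.43e-05; 95% interval 1.95 to 2.62), 4.87-fold in the means, and 99.5% of tested genes had a lower fold change. CTGF (ENSG00000118523.5; chromosome 6, 131948176 to 131951373, minus strand), a secreted matricellular protein now named CCN2, had 23.9, 24.1 and 23.5 CPM in controls and 25.7, 19.2 and 19.8 CPM after depletion. Depleted replicate 1 was above the controls and the others below them. The log2 fold change was -0.14 ± 0.14 (adjusted p = 0.434; 95% interval -0.45 to 0.16). CYR61 (ENSG00000142871.14; chromosome 1, 85580761 to 85583962, plus strand), the related matricellular protein CCN1, had 54.2, 52.1 and 55.8 CPM in controls and 54.1, 57.1 and 52.4 CPM after depletion. The groups lay over each other, with a log2 fold change of 0.01 ± 0.11 (adjusted p = 0.928; 95% interval -0.23 to 0.25). CYR61 changed sign with library totals as the only scaling, with the length and GC correction and on FPKM, each time without passing the threshold.

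CTGF passed without BCLAF1-depleted replicate 1 (-0.31, adjusted p = 0.0238), and there also with the length and GC correction (-0.55, 0.00187). It shares 195 exon bases with AL133346.1 on the opposite strand. ANKRD1 kept its call in all settings run.

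Ratios of 2 genes within a library need no scaling between libraries. Counts of TEAD1 were 2.62, 2.67 and 2.48 times those of TEAD4 in controls, and 1.81, 0.773 and 0.995 times after depletion. AMOTL1 had 0.847, 0.861 and 0.732 times the counts of AMOTL2 in controls and 1.10, 1.77 and 1.73 times after depletion. YAP1 had 0.357, 0.343 and 0.344 times the counts of WWTR1 in controls and 0.457, 0.386 and 0.366 times after depletion. In these 3 pairs no depleted library overlapped the controls. The mean log2 ratio moved by -1.21 for TEAD1 to TEAD4, by 0.88 for AMOTL1 to AMOTL2 and by 0.21 for YAP1 to WWTR1. The shift of TEAD1 to TEAD4 was -1.56 without BCLAF1-depleted replicate 1, and that of YAP1 to WWTR1 was 0.11. A ratio does not take out differences that go with gene length, and TEAD1 is in the longest and TEAD4 in the shortest quintile of exon length. With length and GC content corrected for, their log2 fold changes were 0.06 and 0.76, closer together than the -0.21 and 1.03 without the correction. CTGF to CYR61 moved by -0.17 with overlapping groups (-0.31 without BCLAF1-depleted replicate 1 and -0.06 without replicate 2). ANKRD1 against CTGF and against CYR61, ratios chosen after the values were seen, moved by 2.43 and 2.26. Over these 6 ratios the exact two-sided permutation test gave p = 0.1, the smallest that 3 against 3 libraries allow, for all but CTGF to CYR61 (exact p = 0.4). Benjamini-Hochberg adjusted values were 0.12 and 0.4, so none passed 0.05.

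**Figure D2:**
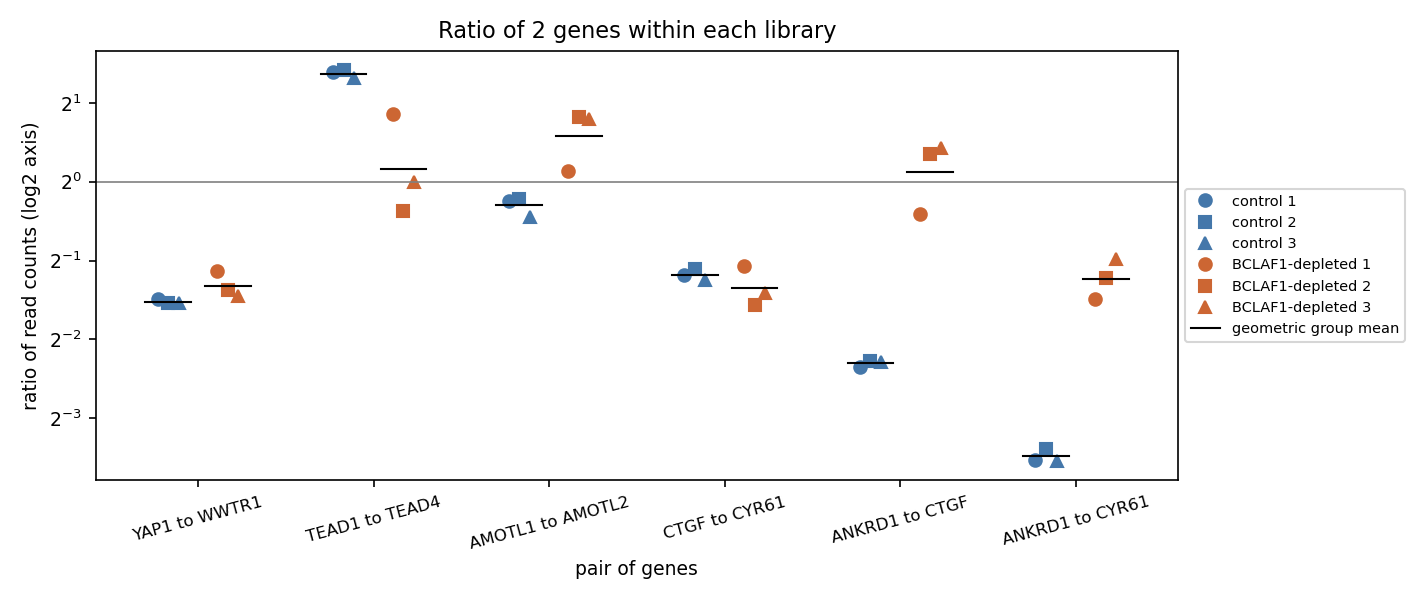
Ratio of the read counts of 2 genes within each library (log2 axis), with bars at the geometric group means. TEAD1 to TEAD4 ran from 2.48 to 2.67 in controls and from 0.773 to 1.81 after depletion, and ANKRD1 to CTGF from 0.196 to 0.206 and from 0.752 to 1.34.

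The order of the levels also differed between the groups. In controls, by mean FPKM, WWTR1 (23.5 ± 1.39) and CYR61 (22.8 ± 0.925) led with overlapping ranges, followed by AMOTL2 (17.6 ± 1.05) and TEAD4 (16.4 ± 1.64), which also overlapped. CTGF stood alone at 9.83 ± 0.0551 FPKM. TEAD1 (8.15), YAP1 (7.79) and AMOTL1 (7.59) overlapped from neighbour to neighbour, and LATS2 (4.82) and ANKRD1 (2.35) stood apart from all others. After depletion TEAD4 led with 27.0 ± 5.82 FPKM and LATS2 was last with 2.16 ± 0.951, both without overlap with their neighbours. Between them CYR61 (18.9), WWTR1 (13.4), AMOTL2 (9.64), ANKRD1 (9.25), CTGF (7.40), AMOTL1 (7.34), TEAD1 (5.84) and YAP1 (5.23) each overlapped with the next. By group mean, ANKRD1 thus went from the last place to the fifth, with a range that overlapped those of both neighbours. The gene lengths behind the FPKM are not known.

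Fold changes in these libraries followed gene length, and the members differ in length. By quintile of summed exon length, tested genes of up to 2289 bases had a median of 0.35 on the log2 scale and those of 7814 bases or more a median of -0.19. Both members that rose, ANKRD1 (1979 bases) and TEAD4 (2272 bases), are in the shortest quintile. LATS2 (5578 bases), AMOTL2 (5984 bases) and YAP1 (6296 bases) are in the quintile with a median of -0.12, and WWTR1 (8413 bases), AMOTL1 (10035 bases) and TEAD1 (10279 bases) in the longest. CTGF and CYR61 (2339 and 2455 bases) are in the second, with a median of 0.13. With a smooth trend in length and GC content removed, ANKRD1 was at 2.15, TEAD4 at 0.76, LATS2 at -0.86 and AMOTL2 at -0.56, all still past the threshold (adjusted p 9.93e-06 to 0.0402). CTGF was then at -0.35 (adjusted p = 0.0863), CYR61 at -0.20 (0.145) and YAP1 at -0.15 (0.486). That left 5 members past the threshold, now 3 higher and 2 lower, as AMOTL1 entered and WWTR1 left, where 33.8% of genes passed.

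**Figure D3:**
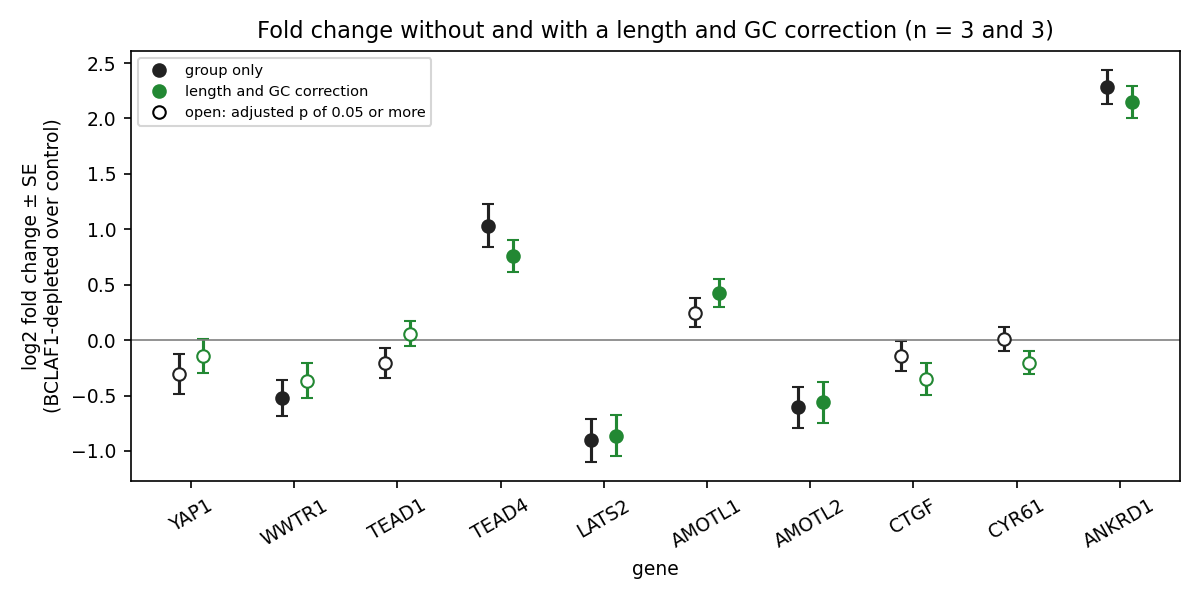
Log2 fold change ± SE (BCLAF1-depleted over control, 3 libraries each) of the 10 genes, in the fit with group as the only term and with the length and GC correction; open points are not past an adjusted p of 0.05. ANKRD1 (2.28 and 2.15), TEAD4, LATS2 and AMOTL2 stayed past it in both, WWTR1 in the first only and AMOTL1 in the second only.

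The number of members past the threshold turned on single libraries. It was 3 without control replicate 1, 2 or 3 or BCLAF1-depleted replicate 2, where 18.1, 18.1, 19.7 and 25.0% of tested genes passed. Without BCLAF1-depleted replicate 1 it was 8 (2 higher and 6 lower), where 48.8% passed, and without BCLAF1-depleted replicate 3 it was 4 (30.8%). With a replicate block it was 5 (37.8%), on log2(FPKM + 1) 5 (35.1%), on log2(FPKM + 0.1) 5 (34.6%), and with the length and GC correction without BCLAF1-depleted replicate 1 it was 6 (44.1%). LATS2, TEAD4 and ANKRD1 were past it in each of these. BCLAF1-depleted replicate 1 was the depleted library nearest the controls for ANKRD1, TEAD4, LATS2 and AMOTL2.

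Among upstream components and partners of the pathway, more genes were lower than higher with group as the only term. The lean was much smaller with the length and GC correction (9 lower and 7 higher). Of 44 tested genes for kinases, scaffolds, phosphatase-complex subunits, cadherins and TEAD cofactors, 14 were lower and 4 higher, with a median of -0.25. Together that was 40.9%, against 35.8% of all tested genes (18.0% lower and 17.8% higher). RASSF6, a scaffold of the MST kinases, had 8.51, 8.91 and 9.11 CPM in controls and 3.99, 3.34 and 3.33 CPM after depletion (-1.31 ± 0.15, adjusted p = 0.000287). STRN3, a striatin subunit of the phosphatase complex that acts on MST kinases, had 17.02 ± 0.606 and 8.11 ± 1.83 CPM (-1.07 ± 0.16, 0.00151). BTRC, a ubiquitin ligase subunit that binds phosphorylated YAP1, had 19.1 ± 0.396 and 11.6 ± 1.10 CPM (-0.72 ± 0.12, 0.00258). The kinase gene MAP4K3 had 12.4 ± 0.948 and 6.69 ± 3.05 CPM (-0.88 ± 0.29, 0.0361).

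MAP4K3 lost its call without control replicate 1, 2 or 3 (adjusted p = 0.0869, 0.0908 and 0.0755), without BCLAF1-depleted replicate 3 (0.0663) and with the length and GC correction (0.0539). Among core components named after their values were seen, the MST1 gene STK4 (-0.60 ± 0.13, adjusted p = 0.00756) and the kinase cofactor gene MOB1A (-0.46 ± 0.11, 0.0118) were lower and the upstream activator gene NF2 higher (0.62 ± 0.15, 0.0114). LATS1, the paralogue of LATS2, had -0.49 ± 0.18 (0.0528). With the length and GC correction the list had 9 lower and 7 higher genes and a median of -0.09 (33.8% of all genes passed). With library totals alone it had 17 lower and 0 higher (31.1%), where all tested genes also leaned lower (3662 lower and 1283 higher). The count past the threshold was 7 without control replicate 1 (18.1%) and 9 without control replicate 2 (18.1%) or 3 (19.7%).

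Other genes commonly used as YAP and TAZ targets were split. Of 36 tested, 8 were higher and 10 lower, 50% in all against 35.8% of all tested genes (17.8% higher and 18.0% lower), and their median was -0.08. FSTL1, a secreted glycoprotein, had 64.3, 65.5 and 68.1 CPM in controls and 15.2, 8.39 and 12.5 CPM after depletion (-2.45 ± 0.19, adjusted p = 3.76e-05). The transcription factor gene FOXF2 had 21.2 ± 0.851 and 8.20 ± 1.12 CPM (-1.37 ± 0.14, 0.000145). AREG, an EGF receptor ligand, rose from 77.4 ± 4.72 to 206.1 ± 49.3 CPM (1.41 ± 0.17, 0.000416), and CAV1, the caveolae coat protein, from 53.3 ± 3.61 to 107.3 ± 14.2 CPM (1.01 ± 0.13, 0.000672). The highest value of the list, named after it was seen, was that of INHBA, an activin subunit gene with 0.153 and 4.52 CPM in the means (4.85 ± 0.33). Its control values of 0.136 to 0.166 CPM lay near the floor of 3 counts, so the size of this fold change is uncertain. Without control replicate 1 the count was 11 (6 higher and 5 lower), where 18.1% of all tested genes passed. With library totals alone it was 5 higher and 11 lower, where 31.1% passed (1283 higher and 3662 lower). With the length and GC correction it was 8 higher and 7 lower (33.8% of all genes passed). On log2(FPKM + 1) it was 3 higher and 12 lower, where 35.1% passed (1131 higher and 4453 lower). PTPN14 and AJUBA are counted both here and among the upstream components and partners.

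SRF shares several target genes with YAP, and genes of the actin cytoskeleton and of SRF regulation formed the last list. Of 34 tested, 8 were lower and 2 higher, with a median of -0.12. That was 29.4% in all, against 35.8% of all tested genes (18.0% lower and 17.8% higher). The 2 higher genes, named after their values were seen, were LIMK1 (0.66 ± 0.14, adjusted p = 0.00568) and TPM2 (0.63 ± 0.22, 0.0479). RHOB, a small GTPase of actin and endosomes, had 173.0, 179.1 and 177.4 CPM in controls and 96.8, 79.7 and 67.4 CPM after depletion (-1.12 ± 0.15, adjusted p = 0.000669). The focal adhesion gene VCL had 173.0 ± 7.07 and 92.1 ± 25.9 CPM (-0.91 ± 0.18, 0.00509), the actin cross-linker gene FLNA 1441 ± 74.9 and 813 ± 95.3 CPM (-0.83 ± 0.15, 0.00374) and the formin gene DIAPH3 40.8 ± 2.68 and 23.9 ± 3.77 CPM (-0.77 ± 0.14, 0.00329). SRF itself was at 0.15 ± 0.12 (0.363). The count was 6 without control replicate 1 or 2 (18.1% of all tested genes in each), 7 without control replicate 3 (19.7%) or BCLAF1-depleted replicate 2 (25.0%), 14 without BCLAF1-depleted replicate 3 (30.8%) and 16 without BCLAF1-depleted replicate 1 (48.8%). With library totals alone it was 15 lower and 0 higher (31.1%), on log2(FPKM + 1) 16 lower and 0 higher (35.1%), and with the length and GC correction 6 lower and 1 higher (33.8%). All tested genes leaned lower too, with 3662 lower and 1283 higher on library totals and 4453 lower and 1131 higher on log2(FPKM + 1).

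**Figure D4:**
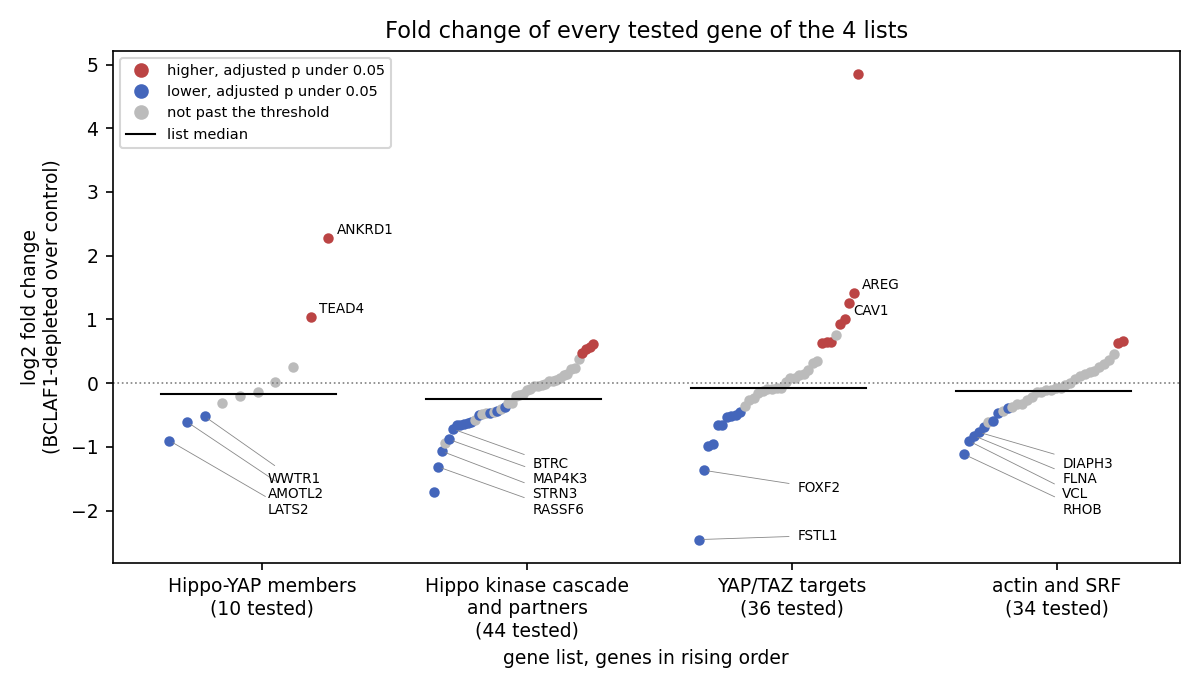
Log2 fold change (BCLAF1-depleted over control) of every tested gene of the 10 members and of the 3 other lists, in rising order, with coloured points past an adjusted p of 0.05 and bars at the list medians. The members span -0.90 (LATS2) to 2.28 (ANKRD1), and the medians run from -0.25 for the kinase cascade list to -0.08 for the target list.

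Genes with the most similar pattern over the 6 libraries were listed for YAP1, CTGF and CYR61 among the 10172 other genes that averaged 5 CPM or more, by Pearson correlation of log2 CPM. For YAP1 they were MYEF2 (r = 0.997), UFM1 (0.994) and SRFBP1 (0.992), and for CTGF they were SLC25A30 (0.997), LGR4 (0.996) and SCFD2 (0.995). Without BCLAF1-depleted replicate 2 these fell to 0.976, 0.957 and 0.926 for YAP1 and were 0.9955, 0.9924 and 0.9917 for CTGF. With all libraries, 10 genes were above 0.99 for YAP1 and 7 for CTGF. CYR61 had no gene above 0.99, and TSEN54 (0.950) and ZNF672 (0.943) came nearest, at 0.903 and 0.883 without BCLAF1-depleted replicate 2. All points share the same 6 libraries, their scaling and their group difference, so these values are descriptions.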

How the data were processed

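RNA of 6 libraries (3 control, 3 BCLAF1-depleted) was sequenced by the authors. The submitters' processing notes list bcl2fastq, TopHat2, edgeR and GRCh38. Not given in the sources used here are the versions, the role of each, the counter, its annotation and its strand setting. The authors deposited raw read counts per gene (29122 genes) and FPKM per gene (28878 genes).

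The counts were tested as deposited with edgeR 4.0.16 in R 4.3.3 (TMM scaling, filterByExpr with a minimum count of 10 and total of 15, quasi-likelihood test with group as the only term). Of the genes, 15907 were tested, with Benjamini-Hochberg adjustment over all of them and a threshold of 0.05. Library totals of 33409158 to 43928927 and a common biological coefficient of variation of 15.3% set the precision. On simulated data for this comparison with 15907 genes, of which 200 were changed, 94% of 2-fold and 27% of 1.5-fold changes were recovered, and 7.63% of calls were false. The simulation gave all genes the same biological coefficient of variation in both groups. In the real libraries the median coefficient of variation was 7.18% in the controls and 18.7% after depletion, so these rates may not hold for them. Exon lengths, positions and overlaps came from GENCODE 29 on GRCh38 (15775 tested genes had a length and GC content), and the length and GC correction was a smooth offset fitted with mgcv 1.9.3 (basis size 8). FPKM were tested with limma 3.58.1 as log2(FPKM + 1) and log2(FPKM + 0.1), a scale that understates the change of low genes. Promoter windows are from RefSeq (GRCh38.p14). DESeq2 1.42.0, other scalings and filters, limma-voom, a replicate block and leaving out each library were alternatives. The length and GC correction without BCLAF1-depleted replicate 1, the ratio and likeness alternatives and the ratios with ANKRD1 were added after seeing the data.

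Genes named are all 10 members, BCLAF1, up to 4 genes per list past the threshold with the largest absolute log2 fold change and a mean of at least 5 CPM, and the 3 genes most like YAP1, CTGF and CYR61, of which 1 is not reported here; TEAD2 and TEAD3 complete the family, and other genes were chosen after their values were seen. The members and lists were chosen with earlier results of these data known.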

Additional observations from a re-analysis of the deposited data

How the results depend on the processing

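Among the 10 members, 158 values under alternatives kept their direction and side of the threshold, 7 passed it newly, 12 lost it and 13 changed sign. TEAD1 turned to 0.0585 with the replicate block plus the length and GC correction and 0.0583 with that correction alone. AMOTL1 turned to -0.0471 on log2(FPKM + 1) and -0.0533 on log2(FPKM + 0.1), where the median of all genes was -0.14 and -0.25. CYR61 turned to -0.21 with library totals alone, -0.0274 without a low-count filter, -0.20 with the length and GC correction (with and without the block), -0.27 and -0.28 on log2(FPKM + 1) and log2(FPKM + 0.1), -0.0172 and -0.0205 when control or depleted replicate 2 was left out (0.0407 was the highest over left-out libraries), and -0.25 with the correction without BCLAF1-depleted replicate 1. None of these passed the threshold, and the cause was not tested. Leaving out 1 library gave 2938 to 7936 genes past the threshold (5697 with all), or 18.1 to 48.8% of tested genes. It gave 3 to 8 of 10 members, 7 to 25 of 44 kinase cascade genes, 11 to 21 of 36 target genes and 6 to 16 of 34 actin and SRF genes. On both FPKM scales the actin and SRF list had 16, and all genes split into 1131 higher and 4453 lower, or 1126 and 4381. Whether replicate numbers pair the samples is not stated in the labels. Deviations of same-numbered libraries correlated weakly, at 0.036, 0.0466 and 0.119, though each library correlated best with its own number. That is a hint from the data and not the design, and it cannot decide the pairing. The replicate block gave 6007 genes (37.8% of those tested), 5 members, 21 cascade, 19 target and 9 actin and SRF genes. With 3 libraries a group, 1.5-fold changes were often missed in simulated data, which had the same spread in both groups, unlike these libraries. A value that misses the threshold therefore does not show an equal level.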

Other observations

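Coefficients of variation here are on TMM-scaled CPM. On that scale CYR61 was the steadiest member among the BCLAF1-depleted libraries, at 4.42% against 13.9 to 31.5% for the other 9 members. This depended on the scale: on the deposited FPKM, CYR61 had 18.9 ± 2.85 after depletion and ANKRD1 9.25 ± 0.41, so ANKRD1 was the steadier there. In the controls the members ranged from 1.18% (CTGF) to 9.33% (TEAD4). LATS2 went from 1.35% in the controls to 31.5% after depletion, with BCLAF1-depleted replicate 1 at 19.8 CPM and replicate 2 at 10.8 CPM. The wider spread was general: the median coefficient of variation over all 15907 tested genes was 7.18% in the controls and 18.7% after depletion. These spreads are over 3 libraries a group and were not tested.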
